A study of Arabidopsis thaliana with 4 samples.

Results

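The regions described are 360 array tiles whose log ratio in a profile of trimethylated histone H3 at lysine 36 (H3K36me3) was strongly low in both replicates. They were chosen from 21685 tiles with a value and make up 1.66% of them. A tile is 1 probe of the array. Each replicate was centred on its median over all tiles, and a tile was taken when its centred ratio lay below -0.9 in replicate 1 and in replicate 2. The members were thus chosen by the measured ratio itself, so their ratios are a description and no test was made on them.

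The study profiled chromatin of untreated Arabidopsis thaliana seedlings (ecotype Col-0), aged 10 days by the labels' age field and grown in liquid medium under a photoperiod of 16 hours. DNA from chromatin immunoprecipitation (ChIP) with an Abcam antibody to H3K36me3 was hybridised together with input DNA, on 4 arrays that hold 2 pairs of extracts in both dye orientations. The 4 arrays form 1 group, without a mutant, treatment or control antibody. Whole seedlings were used, so each ratio is an average over their cell types. Both arrays of a pair hold identical values at all 21685 tiles and were counted as 1 replicate (n = 2). Nothing in the labels says that the extracts came from separate cultures, so the spread between them may be technical.

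In plants, H3K36me3 is known from the bodies of transcribed genes, where it is added during elongation by SET-domain methyltransferases such as SDG8. At the flowering gene FLC it is a mark of the active state and is opposed to the repressive trimethylation of lysine 27. In a ChIP against input comparison, a tile over marked chromatin is expected at one end of the ratio and a tile without the mark at the other. Neither the direction nor the logarithm's base of the deposited ratios is stated in the sources used here. Low and high therefore mean low and high as deposited, and if the ratio runs input over ChIP their meaning for the mark is exchanged. No table used here pairs the tile identifiers with genes or genome positions, so no gene is named and no sequence is shown. An identifier gives a plate set, a plate number and a well, and tiles were ordered by these, row by row.

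The low tiles formed the lower tail of the ratios. In replicate 1 their centred ratio ran from -2.19 to -0.90 with a median of -1.11, and in replicate 2 from -2.38 to -0.90 with a median of -1.07. Over all tiles the ratios reached 3.98 in replicate 1 and 3.46 in replicate 2. Most members lay close to the cut-off: 269 of them (74.7%) had a replicate mean above -1.2, 77 lay between -1.5 and -1.2, and 14 lay below -1.5. The tile just inside the cut-off had -0.90 in replicate 1 and -0.95 in replicate 2, and the one just outside had -0.90 and -1.16. Within 0.1 of the cut-off there were 162 tiles on the inner side and 258 on the outer side, so the edge of the set is not a gap in the data. Within the set the replicates differed by 0.18 (SD over tiles of replicate 1 minus replicate 2), a spread that the cut-off in both replicates narrows.

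**Figure D1:**
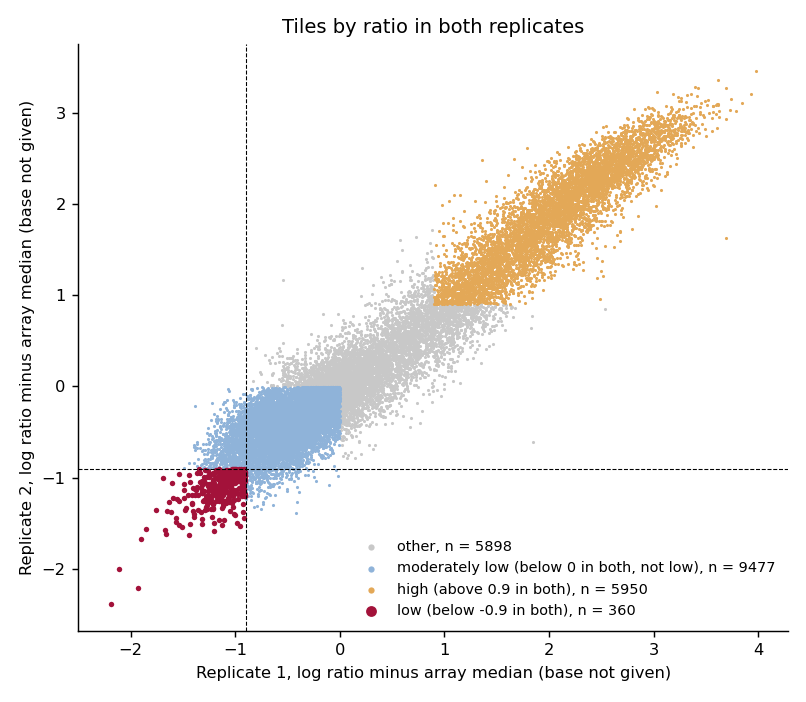
Centred log ratio of each tile in replicate 1 (x axis) and replicate 2 (y axis), with the 360 low tiles, 9477 moderately low tiles, 5950 high tiles and 5898 others in separate colours. Dashed lines mark -0.9 on each axis, and the low tiles run into the moderately low ones without a gap.

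Both replicates limited the list, and replicate 2 was the stricter. Alone, 1279 tiles lay below -0.9 in replicate 1 and 596 in replicate 2, and the 360 members are 28.1% of the first list and 60.4% of the second. The tiles that passed in 1 replicate alone were still low in the other. The 919 that passed in replicate 1 alone had a median of -0.61 in replicate 2, and the 236 that passed in replicate 2 alone had a median of -0.73 in replicate 1. Of the 1279 tiles low in replicate 1, 1279 lay below 0 in replicate 2, where 50.0% of all tiles did. Of the 596 low in replicate 2, 596 lay below 0 in replicate 1. The replicate not used to choose a tile thus placed it on the same side of the median in all of these cases. Over all tiles the replicates had a Pearson correlation of 0.968, and their difference had an SD of 0.30. With a cut-off at -0.9 this outcome was therefore close to given, and it is no independent support for the members.

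A linear model of each tile against the array median (limma, both replicates, Benjamini-Hochberg adjusted threshold of 0.05) called 32.3% of all tiles below it. It called 360 of the 360 members, which follows from the rule and is not read further. For comparison, 2 other groups were cut from the same ratios. Moderately low tiles lay below 0 in both replicates without being members (9477 tiles, 43.7%), and high tiles lay above 0.9 in both (5950 tiles, 27.4%).

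The lowest ratio was found at tile TA06C05. Its centred ratio was -2.19 in replicate 1 and -2.38 in replicate 2, a mean of -2.29 ± 0.14 (SD, n = 2), and its mean minus the median of its plate was -2.59. The tile before it had -2.11 and -2.00 and is a member too, and the tile after it had -0.56 and -0.62. The next lowest was TA56G11, with -1.93 and -2.21 and a mean of -2.07 ± 0.20 (SD, n = 2). Its neighbours were not members: the tile before it had 0.08 and 0.36, and the tile after it had -0.43 and -0.63. The lowest tile thus lay within a short run, and the next lowest stood alone after a tile near the median and before a moderately low one.

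Low tiles occurred in 3 of the 5 plate sets and unevenly among them. Set TA held 228 of them (63.3%, 95% Wilson interval 58.2 to 68.1, which takes tiles as independent and covers counting error only), while it holds 42.8% of all tiles. With each plate centred on its own median this turns, and TA holds 20.4% of the longer list. Set TB held 74 (20.6%) with 44.2% of all tiles, and set TC held 58 (16.1%) with 11.1%. As a share of each set, this was 2.46% of TA, 0.772% of TB and 2.40% of TC. Set PD held 0 among 316 tiles, which allows a share of up to 0.949%, and set TD held 0 among 96, which allows up to 3.13%.

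Along the plates, the share of low tiles was highest in the ranges that hold few high tiles. It was 4.30% of the 1069 tiles on plates TA18 to TA29, 3.96% of 1338 on TA37 to TA51 and 4.06% of 1133 on TC17 to TC30. In these ranges 12.9%, 2.39% and 1.06% of tiles were high. The share was 2.13% on TA30 to TA36 and 2.12% on TA52 to TA99. It was 1.10% on TA01 to TA17, 1.02% on TB00 to TB49, 0.936% on TC00 to TC13 and 0.523% on TB50 to TB99, where high tiles made up between 31.1% and 39.9%. Low and high tiles are cut from the same ratios, so these shares are not independent of each other. The ranges were also drawn with earlier results of these data known. TA18 to TA29, TA37 to TA51 and TC17 to TC30 were drawn around low stretches, so their higher shares are a description only.

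Low tiles were not restricted to plates without high tiles. On the 32 plates with under 5% high tiles, called high-poor here, there were 125 low tiles among 2815 (4.44%), spread over 29 plates. On the other 199 plates there were 235 among 18870 (1.25%), spread over 97 plates. The other plates thus held 65.3% of the members, but they also hold 18870 of all 21685 tiles. Their share of low tiles (1.25%) was below the 1.66% over all tiles. The median difference of a low tile from its plate's median was -0.95 on these plates and -0.51 on high-poor plates, which follows from the fixed cut-off and the lower plate medians there. The median neighbour of a low tile had -0.59 on these plates and -0.72 on high-poor ones.

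The replicates differed on the high-poor plates. There, 692 tiles (24.6%) lay below -0.9 in replicate 1 and 149 (5.29%) in replicate 2. The other plates had 3.11% and 2.37% of their tiles below it. The median of replicate 1 minus replicate 2 over all tiles was -0.28 on high-poor plates and 0.07 elsewhere. Over the low tiles alone it was -0.10 on high-poor plates and 0.00 elsewhere. On high-poor plates, 125 of the 692 tiles below the cut-off in replicate 1 were thus also below it in replicate 2. The part of this regional shift in where the low tiles lie was not tested.

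**Figure D2:**
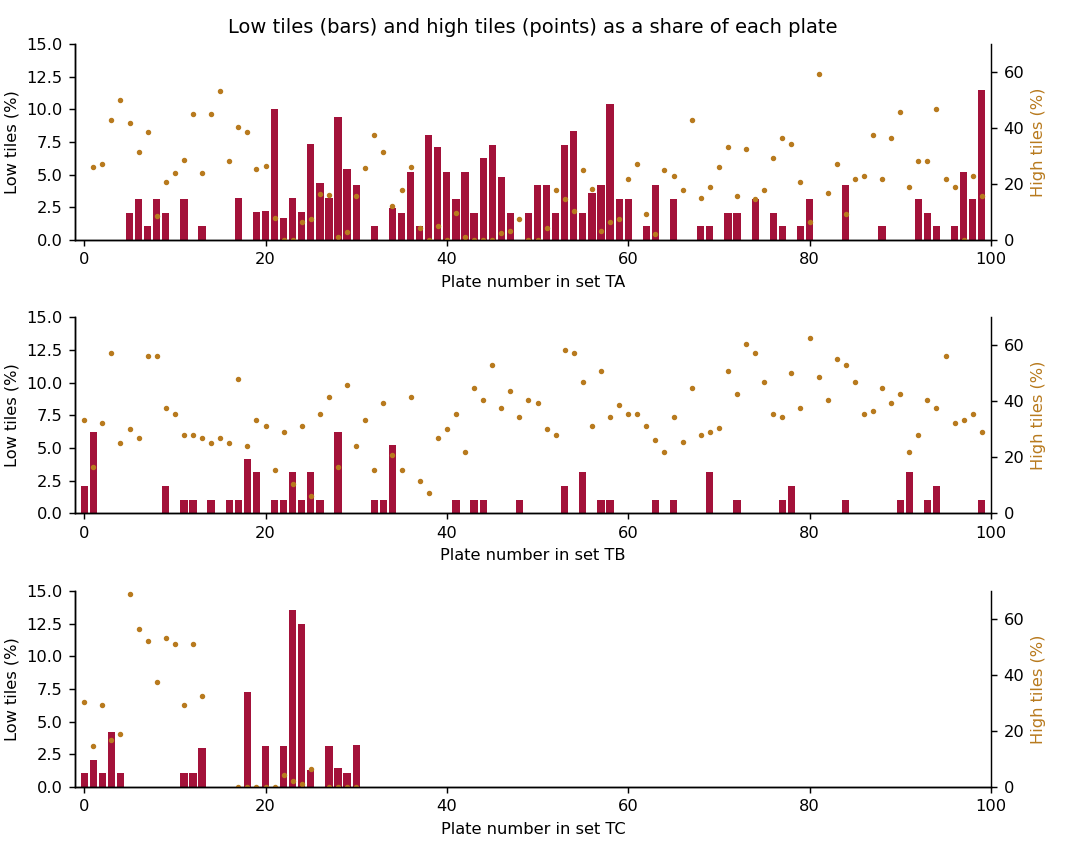
Share of tiles on each plate that are low (bars, left axis, 0 to 15%) and high (points, right axis, 0 to 70%) by plate number in sets TA, TB and TC. The tallest bars are TC23 at 13.5% and TC24 at 12.5%, and the bars are low or missing through most of set TB.

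Single plates held up to 13 low tiles. Of the 231 plates, 105 held none, 47 held 1 and 20 held 5 or more, and these 20 carried 148 of the 360 members. In set TA the most were found on TA99 (11 tiles), TA58 (10) and TA21 (9), in set TC on TC23 (13), TC24 (12) and TC18 (7), and in set TB on TB01 (6), TB28 (6) and TB34 (5). A share of 10% or more was reached on 5 plates, TA21, TA58, TA99, TC23 and TC24, and no 3 consecutive plates reached it. The 3 richest plates of set TC were poor in high tiles (2.08%, 1.04% and 0%). High tiles made up 15.6% of TA99, 6.25% of TA58 and 7.78% of TA21, against 27.4% of all tiles. On TA99, a single run holds 10 of the 11 low tiles.

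By the rule on both replicates, most low tiles had no other low tile beside them. In the identifier order, 253 (70.3%, Wilson interval 65.4 to 74.8) stood alone and 107 (29.7%, 25.2 to 34.6) adjoined another. The intervals take tiles as independent, which adjoining tiles are not, and do not cover the choice of processing. In replicate 1 alone the list is longer and 43.6% of it stood alone, and with each plate centred on its own median 26.6% did. The corresponding share that adjoined a low tile was 4.99% of moderately low tiles and 3.11% of all tiles. Members formed 300 runs: 253 of 1 tile, 41 of 2, 5 of 3 and 1 of 10. Between runs of the same set, the median gap was 27 identifiers, with quartiles of 9 and 69. Another member lay within 5 identifiers of 47.8% of members and within 24 identifiers of 75.0%, against 19.5% and 51.9% of moderately low tiles. For all tiles these shares were 12.3% and 38.7%. Within 24 identifiers it was 88.8% of members and 80.6% of all tiles on high-poor plates. On the other plates it was 67.7% and 32.5%.

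Deeper members adjoined other members in a higher share. Depth and adjacency are both read from the ratios used for choosing, and some of the deepest members adjoin each other, so this is a description. Of the 14 members with a mean below -1.5, 11 adjoined another member (78.6%). The count was 36 of 77 between -1.5 and -1.2 (46.8%) and 60 of 269 above -1.2 (22.3%). On high-poor plates 29.6% of low tiles adjoined another and on the other plates 29.8%, while low tiles were 4.44% and 1.25% of the tiles there. By set it was 31.6% in TA, 20.3% in TB and 34.5% in TC.

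Low tiles stood mainly among moderately low ones. Of the 708 measured neighbours of members, 492 (69.5%) were moderately low, 120 (16.9%) low, 76 (10.7%) of neither kind and 20 (2.82%) high. For 181 members (50.3%), both neighbours were moderately low. The neighbours of moderately low tiles were 74.0% moderately low, 2.62% low and 3.69% high. Over all tiles, neighbours were 43.6% moderately low, 1.64% low and 27.5% high. limma called 77.1% of the neighbours of members below the array median, against 58.1% of the neighbours of moderately low tiles and the 32.3% of all tiles given above. On the plates that are not high-poor these shares were 70.9% for neighbours of members, 50.3% for those of moderately low tiles and 25.5% over the neighbours of all tiles there. The neighbours of members include 120 members, whose calls follow from the rule. For members that stood alone, which have no member beside them, the share over all plates was 72.7%. Moderately low tiles also had mostly moderately low neighbours, so these shares describe the order and are no test of it.

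**Figure D3:**
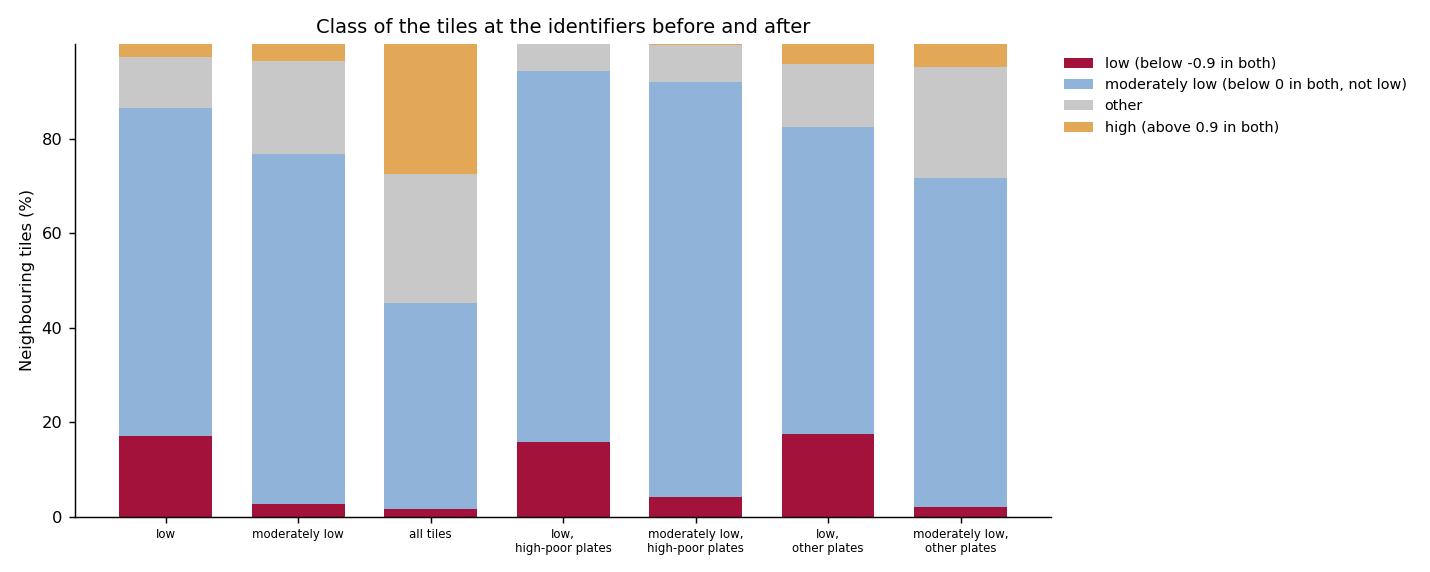
Class of the tiles at the identifiers before and after low tiles, moderately low tiles and all tiles, in percent of measured neighbours, for all plates and for high-poor and other plates. High tiles make up 2.82% of the neighbours of low tiles and 27.5% of the neighbours of all tiles.

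Few low tiles adjoined a high one. This was the case for 19 of 360 (5.28%, Wilson interval 3.40 to 8.10), against 7.08% of moderately low tiles and 40.2% of all tiles. The interval takes tiles as independent and does not cover the choice of replicate. With replicate 1 alone, a longer list of 1279 tiles, the share was 2.27%. On high-poor plates it was 0 of 125, which have few high tiles to adjoin. On the other plates it was 19 of 235 (8.09%) for low and 9.27% for moderately low tiles. By set the count was 8 of 228 in TA, 10 of 74 in TB and 1 of 58 in TC. This is 3.51%, 13.5% and 1.72% in that order, beside 5.08%, 10.4% and 5.51% of the moderately low tiles of these sets.

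The nearest high tile was usually several identifiers away. On plates that are not high-poor, a high tile lay within 5 identifiers of 43.4% of low tiles and of 54.9% of moderately low tiles. Among all tiles of these plates, high ones included, the share was 76.3%. The median distance there was 7 identifiers for low tiles (quartiles 3 and 13) and 5 for moderately low tiles (3 and 9). On high-poor plates the medians were 49 and 64 identifiers.

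Where a low and a high tile meet, the cut-offs at -0.9 and 0.9 themselves fix a large step. Over the 20 such steps, the high tile exceeded the low one by 1.87 to 4.37 in replicate 1, with a median of 3.02, and by 1.86 to 3.82 in replicate 2, with a median of 2.89. Among the 5950 high tiles, 20 (0.336%) adjoined a low tile. The highest of these was TA20B11, with 2.98 in replicate 1 and 2.69 in replicate 2 (mean 2.84 ± 0.20, SD, n = 2). It followed a high tile at 3.30 and 2.80 and was followed by a low tile at -1.03 and -1.13. The next was TB63F06, with 2.76 and 2.48 (mean 2.62 ± 0.19, SD, n = 2). It lay between a low tile at -1.19 and -1.13 and a high tile at 1.55 and 1.65. Each of these high tiles thus had a high tile on one side and a low tile on the other. A low tile with a high tile on both sides occurred once.

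The ratio rose within a few identifiers of a low tile, which follows in part from choosing tiles for their low ratio. Averaged over both sides, neighbours of members had a mean of -0.61 in replicate 1 and -0.53 in replicate 2 at 1 identifier, -0.41 and -0.32 at 2, and -0.23 and -0.16 at 5. At 20 identifiers the means were -0.01 and 0.06, still below the means over all tiles of 0.42 and 0.39. Around members that stood alone, which have no member beside them, the means at 1 identifier were -0.49 and -0.39. Around moderately low tiles the means were -0.32 and -0.26 at 1 identifier and 0.07 and 0.10 at 5. All plates are pooled here. High-poor plates hold 125 of the 360 members and 2343 of the 9477 moderately low tiles, and the part of this in the profiles was not tested. Averaged over the replicates, the mean was -0.56 before and -0.58 after members at 1 identifier, -0.21 and -0.28 at 3, and 0.09 and -0.04 at 20.

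The same profile was read in the replicate that had not been used for choosing. Around tiles below -0.9 in replicate 1, replicate 2 had means of -0.49 at 1 identifier, -0.40 at 2, -0.28 at 5 and -0.20 at 10. Around tiles of replicate 1 between -0.9 and 0, it had -0.20, -0.04, 0.16 and 0.23 at these distances. Around tiles below -0.9 in replicate 2, replicate 1 had -0.49, -0.27, -0.04 and 0.06, and around those of replicate 2 between -0.9 and 0 it had -0.27, -0.10, 0.11 and 0.18. Both profiles lay lower than their comparison. The replicates are closely correlated (Pearson correlation 0.968 over all tiles), so the second replicate is not an independent reading and the difference is a description. Of the tiles chosen in replicate 1, 692 of 1279 lie on high-poor plates, against 149 of 596 chosen in replicate 2, and the part of this in the profiles was not tested.

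**Figure D4:**
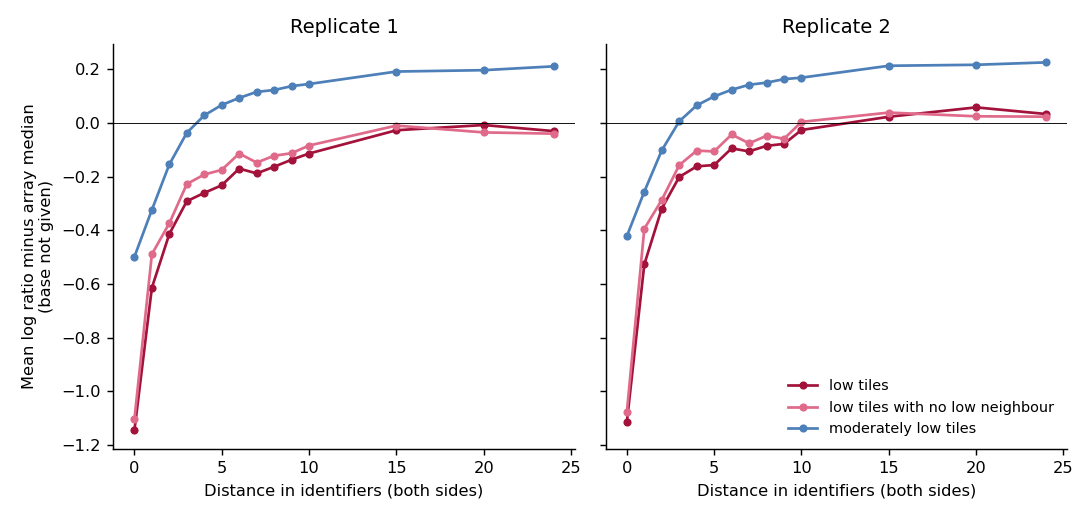
Mean centred log ratio (y axis) by distance in identifiers (x axis, both sides pooled) from low tiles, from low tiles with no low neighbour and from moderately low tiles, in each replicate. All plates are pooled. At 1 identifier from the low tiles the mean is -0.61 in replicate 1 and -0.53 in replicate 2.

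Members that stood alone mostly had moderately low tiles beside them, which made up 419 of their 495 measured neighbours (84.6%). They have no low neighbour by definition, which raises this share. It was 74.0% for the neighbours of moderately low tiles and 43.6% for those of all tiles. Among the 245 lone members with both neighbours measured, the tile minus the mean of its neighbours had a median of -0.54 and ran from -2.76 to -0.02. By the mean of both replicates, both neighbours lay between -0.9 and -0.45 for 77 of them. Both lay above -0.45 for 45 (18.4%), and both lay above 0 for 6 (2.45%).

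Consecutive tiles below 0 in both replicates form low segments, of which there were 2344. A member was present in 228 of them (9.73%). The median segment with a member held 8 tiles, against 2 over all segments, and longer segments have more tiles that could be members. Counted by tile, the median low tile lay in a segment of 12 tiles and the median moderately low tile in one of 7. On plates that are not high-poor these medians were 9 and 5. A segment of a single tile held 15 of the 360 members (4.17%) and 8.58% of the moderately low tiles.

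The longest run lay on plate TA99 and held 10 consecutive low tiles, from row C, column 5 to row D, column 2. Their ratios ran from -1.61 to -0.92 in replicate 1 and from -1.48 to -0.98 in replicate 2, and the run's mean was -1.33 and -1.16. A steep drop along the order led into it. The tile at 4 identifiers before the run had 1.77 and 2.29, the tile just before it had 0.71 and 0.65, and the first tile of the run had -1.14 and -1.05. On the other side the change was smaller. The first tile after the run had -0.83 and -0.76 and the next had -0.04 and -0.27. The run therefore had a high stretch on one side and moderately low tiles on the other, in both replicates.

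Of the 5 runs of 3, the lowest lay in row C of plate TA06 and includes the lowest tile of the array. Its tiles had -1.16, -2.11 and -2.19 in replicate 1 and -1.25, -2.00 and -2.38 in replicate 2. It was preceded by a high tile at 1.91 and 1.41, then by one at 0.75 and 0.46, and it was followed by -0.56 and -0.62. The next lay in row D of plate TB34, with -1.75, -1.86 and -1.63 in replicate 1 and -1.35, -1.56 and -1.26 in replicate 2. It stood among low values, with -0.59 and -0.59 before it and -0.81 and -0.45 after it. A high tile close by was thus seen on one side of the runs on TA99 and TA06, and within 6 identifiers of the run on TB34 there was none.

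**Figure D5:**
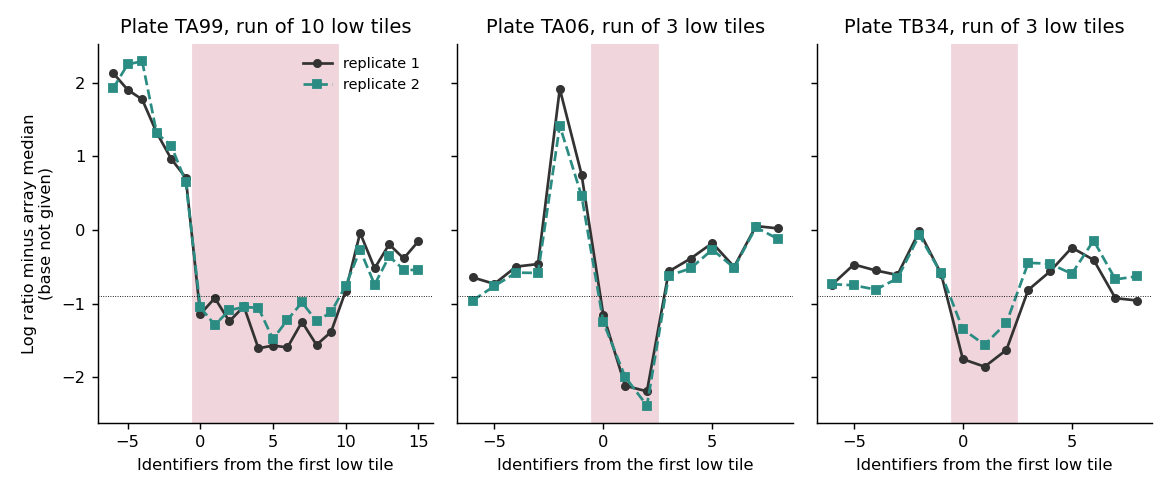
Centred log ratio in both replicates (y axis) by identifiers from the first low tile (x axis) for the 3 longest runs, on plates TA99, TA06 and TB34. The shaded span is the run, the dotted line is -0.9, and in the TA99 panel both replicates fall from about 2 before the run to below -0.9 within it.

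The identifier order matters for these values. With wells read column by column, 5.28% of members adjoined another member and 23.9% adjoined a high tile. With each plate centred on its own median, 1403 tiles passed the same cut-off, 118 of them members, and set TB then held 65.2% of the list.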

How the data were processed

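The authors' deposited table holds 1 log-ratio score per probe and array for 4 arrays. Neither log base, direction nor normalization is stated in the sources used here. Direct Cy3 and Cy5 labelling with amplification is recorded per the labels' protocols. The 2 arrays of a dye-swap pair were averaged (they are identical), giving 2 replicates. Of 21800 identifiers, 115 have no value: 76 plate-and-well names and 39 others. Column medians as deposited were -1.22 and -1.10, and each was subtracted. The depth of an array is not a count, and the number of arrays limits the precision.

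Neighbours are consecutive wells (8 rows of 12 columns) of a plate set, across row ends and to the next plate number. A linear model (limma 3.58.1 under R 4.3.3, intercept only, eBayes, two-sided against 0) was fitted to all 21685 tiles and tested on simulated data, as were the neighbour counts. Other steps used Python 3.11.15 and pandas 2.3.3. The main shares of members carry 95% Wilson intervals, which take tiles as independent and cover counting error only. Named tiles are the 2 members with the lowest mean and the 2 high tiles with the highest mean among those beside a member. Runs and plates were named by length and by count. Members, groups and alternatives were chosen with earlier results of these data known. No enrichment or shuffling test was made, and comparisons between groups of tiles are descriptions.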

Additional observations from a re-analysis of the deposited data

How the results depend on the processing

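The number of low tiles (360) was 363 under quantile normalization, of which 289 were shared. It was 618 at a cut-off of -0.8, 198 at -1, 668 by the mean of both replicates, 52 when centred on the mode and 1403 with each plate centred. With 1 replicate left out it ranged from 596 to 1279. The share adjoining a low tile (29.7%) was 39.8% at -0.8, 39.1% by the mean, 21.2% centred on the mode, 73.4% with plates centred and 5.28% with wells read by column. It ranged from 30.7% to 56.4% with 1 replicate left out. The share standing alone was 60.2%, 60.9%, 78.8%, 26.6% and 94.7% under the same settings, and ranged from 43.6% to 69.3%. The share beside a high tile (5.28%) stayed between 3.85% and 7.27%, except for 23.9% by column. It ranged from 2.27% to 6.04% with 1 replicate left out. The share in set TA (63.3%) was 75.0% centred on the mode and 20.4% with plates centred, and ranged from 57.2% to 67.2% with 1 replicate left out. limma called 15090 probes below without centring and 1054 with a minimum size of 0.5 (treat), against 6995. Without the run of 10, an alternative chosen after seeing the data, 27.7% adjoined a low tile. A longer list has more members to adjoin, by construction. The cause of the other changes was not tested. No paired analysis was possible because all arrays belong to 1 group.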

Other observations

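Low tiles were found in every well position of the plate, with a median of 3 per position over the plates. The most were found in well C05, with 12, followed by 8 each in A11, C09 and E07. By row they ranged from 25 (0.916% of the tiles in row D) to 55 (2.02% in row C), or to 47 in row C without the run of 10. By column they ranged from 21 (1.16% in column 8) to 45 (2.50% in column 11). Wells at the edge of the plate held 35.8% of the low tiles and 37.5% of all tiles. An identifier of plate-and-well form with no value adjoined 2 low tiles (0.556%) and 0.544% of all tiles.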
